A study of Mus musculus with 18 samples.

Results

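The genes described here are 10 genes of the endoplasmic reticulum (ER) stress response and the integrated stress response: Hspa5, Hsp90b1, Xbp1, Dnajb9, Herpud1, Atf4, Ddit3, Trib3, Asns and Chac1. They were picked by symbol, as 10 of the 35006 genes counted in 18 retinal mRNA libraries from male mice, and all 10 passed the filter on low counts. Mice of 2 genotypes drank plain water or water with NACET, the ethyl ester of N-acetyl-L-cysteine, which crosses cell membranes more easily than N-acetylcysteine itself. Levels are given in CPM, read counts scaled to the size of each library, with library sizes adjusted by TMM so that a few very abundant genes do not set the scale.

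WT mice were C57BL/6J animals with normal blood glucose. Akita mice were C57BL/6-Ins2Akita/J males with a heterozygous missense mutation in Ins2, an insulin gene, which makes the insulin of pancreatic beta cells misfold and leads to diabetes early in life. The study describes toxicity of the misfolded insulin in pancreatic beta cells, and effects of the mutation within retinal cells were not tested. The drinking water held 0.33 mg/mL NACET, a daily dose of 50 mg/kg, from week 4 to week 24 of age. Untreated mice drank plain water over the same weeks, and retinas of all groups were taken at week 24 of age. There were 3 libraries of untreated WT retinas, 6 of WT + NACET, 4 of untreated Akita retinas and 5 of Akita + NACET. The labels number the libraries within a group but do not say how many retinas went into each, so that the p-values measure the spread between these libraries.

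When unfolded proteins accumulate in the ER, the sensors IRE1, PERK and ATF6 are released from the chaperone BiP and start the unfolded protein response. IRE1 splices the Xbp1 transcript, ATF6 is cut into a transcription factor, and both raise chaperones and degradation factors through ER stress elements in promoters. PERK, like the kinases that sense amino acid shortage, viral RNA or heme shortage, phosphorylates eIF2, which slows translation in general but favors translation of ATF4, the transcription factor of the integrated stress response. In the retina, photoreceptors renew their outer segments throughout life and so fold large amounts of membrane protein in the ER. The counts give the abundance of each transcript only. They do not show splicing of Xbp1, translation of Atf4 or cleavage of ATF6.

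Promoters of all 10 genes were found in the RefSeq table (assembly GRCm38.p6), and the 250 bases before each start were searched on both strands for 3 motifs. These were the ER stress element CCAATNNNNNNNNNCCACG, which was present in 0.113% of all 32851 promoters in these bases, the ER stress element II ATTGGNCCACG, present in 0.0304%, and the 8-base core of the ATF4 response element, TGATGNAA, present in 3.45%. A match was found in 5 of the 10 genes, and these stretches are printed because they hold the exact matches to these letters. Elements with other letters, or outside these bases, were not searched for, so a gene without a match may still carry an element. The letters in capitals mark the matches, which do not overlap each other, and every stretch was placed on the mm9 genome by its unique exact match. Hspa5 has 1 match to the ER stress element, in the stretch at chr2:34627540-34627568 (+). Hsp90b1 has 2, in opposite orientations, at chr10:86168258-86168421 (-). Herpud1 has an ER stress element II and, upstream of it, an ATF4 core in reverse orientation at chr8:96910197-96910307 (+). Asns has an ATF4 core at chr6:7643214-7643243 (-), and Chac1 has it in reverse at chr2:119176765-119176812 (+). The Hspa5 and Asns stretches, although upstream of the RefSeq starts, lie in the annotated first exon of GENCODE vM1, and the other 3 lie upstream of the annotated genes.
Hspa5: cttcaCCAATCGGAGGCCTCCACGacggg
Hsp90b1: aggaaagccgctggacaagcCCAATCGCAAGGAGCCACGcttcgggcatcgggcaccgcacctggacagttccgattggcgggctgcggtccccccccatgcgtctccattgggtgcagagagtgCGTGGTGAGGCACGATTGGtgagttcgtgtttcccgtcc
Herpud1: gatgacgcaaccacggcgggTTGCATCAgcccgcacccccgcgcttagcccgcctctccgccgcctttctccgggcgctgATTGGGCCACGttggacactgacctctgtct
Asns: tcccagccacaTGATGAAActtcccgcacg
Chac1: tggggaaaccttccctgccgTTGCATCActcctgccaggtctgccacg
In the same bases, Atf4, Ddit3, Xbp1, Trib3 and Dnajb9 had no match to these letters.

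Depth ranged from 11495596 to 17814479 counts in genes per library. Markers of rods (Gnat1, Pde6b, Nrl and Sag) were present in every library, with summed levels from 22044 to 45926 CPM, so the tissue matched its label. Ins2 had 0 to 9 counts, too few to check the genotype. The share of aligned reads outside annotated exons, called the outside-exon share here, was 14.9 to 17.1% in WT, 9.55 to 16.5% in WT + NACET, 9.67 to 13.3% in Akita and 14.3 to 19.8% in Akita + NACET. These 4 rod markers summed to 24341 to 34262 CPM in WT, 30227 to 41253 in WT + NACET, 32205 to 45926 in Akita and 22044 to 29800 in Akita + NACET, so that both measures moved with the groups. Of the other marker lists, the amacrine cell sum was lower in Akita (303 to 462 CPM) than in WT (507 to 684) and in Akita + NACET (475 to 556), with no overlap. The cone sum was lower in Akita + NACET (1866 to 2395 CPM) than in every library of the other groups, which began at 2431. The Müller glia sum was lower in Akita + NACET (1790 to 2086 CPM) than in WT + NACET (2343 to 3187), and the red cell sum was higher in Akita + NACET (35.7 to 97.2 CPM) than in Akita (11.9 to 33.9) or WT (12.8 to 28.5). The plasma cell and secretory list, of which 3 of 5 genes were counted, summed to 15.1 to 21.2 CPM in WT + NACET and 10.7 to 13.8 in WT. The pigment epithelium sum was 156 to 559 CPM in WT and 346 to 1500 in WT + NACET. It was 61.3 to 224 CPM in Akita, with no overlap with WT + NACET, and 92.4 to 699 in Akita + NACET. In whole retina, fewer cells of a type and less RNA per cell cannot be told apart. In Akita replicate 4 the rod sum was the highest and the ganglion cell and Müller glia sums, 545 and 1205 CPM, were the lowest of all libraries. WT + NACET replicate 5 held 21927 CPM of the 5 lens genes Cryaa, Cryba1, Crybb2, Cryga and Mip, against 1.52 to 2630 CPM in the other libraries.

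Coordinates of the genes are those of GENCODE vM1 on mm9. Per kilobase of exon, Hspa5 and Hsp90b1 were the most abundant of the 10 transcripts. Over the 18 libraries Hspa5 averaged 173 ± 24.2 CPM per kb (SD, n = 18), Hsp90b1 142 ± 22.8 and Atf4 89.3 ± 23.1. Then came Herpud1 with 53.7 ± 11.2 CPM per kb and Xbp1 with 47.4 ± 8.13. Herpud1 had the higher mean in each group, with 62.3 against 54.0 CPM per kb in WT and 47.0 against 41.1 in WT + NACET. In Akita the means were 47.9 and 44.2, and in Akita + NACET 61.3 and 53.6. Asns, Dnajb9 and Ddit3 formed a close group at 31.7 ± 8.97, 31.2 ± 2.75 and 25.7 ± 3.97 CPM per kb. Trib3 and Chac1 were the scarcest, at 5.74 ± 2.01 and 3.47 ± 1.78 CPM per kb, and their relative errors were the largest. Chac1 had 16 to 171 reads per library. Dnajb9 varied least, with 1.48-fold between the lowest and highest library, and Chac1 most, with 9.26-fold. For Hsp90b1, 632 exon bases overlap other annotated genes, among them the lincRNA 1810014B01Rik on the opposite strand, and for Ddit3, 81 bases overlap Mars and RP24-341K21.6. Counting was without strand, so reads confined to these bases cannot be assigned to 1 gene under that annotation.

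**Figure D1:**
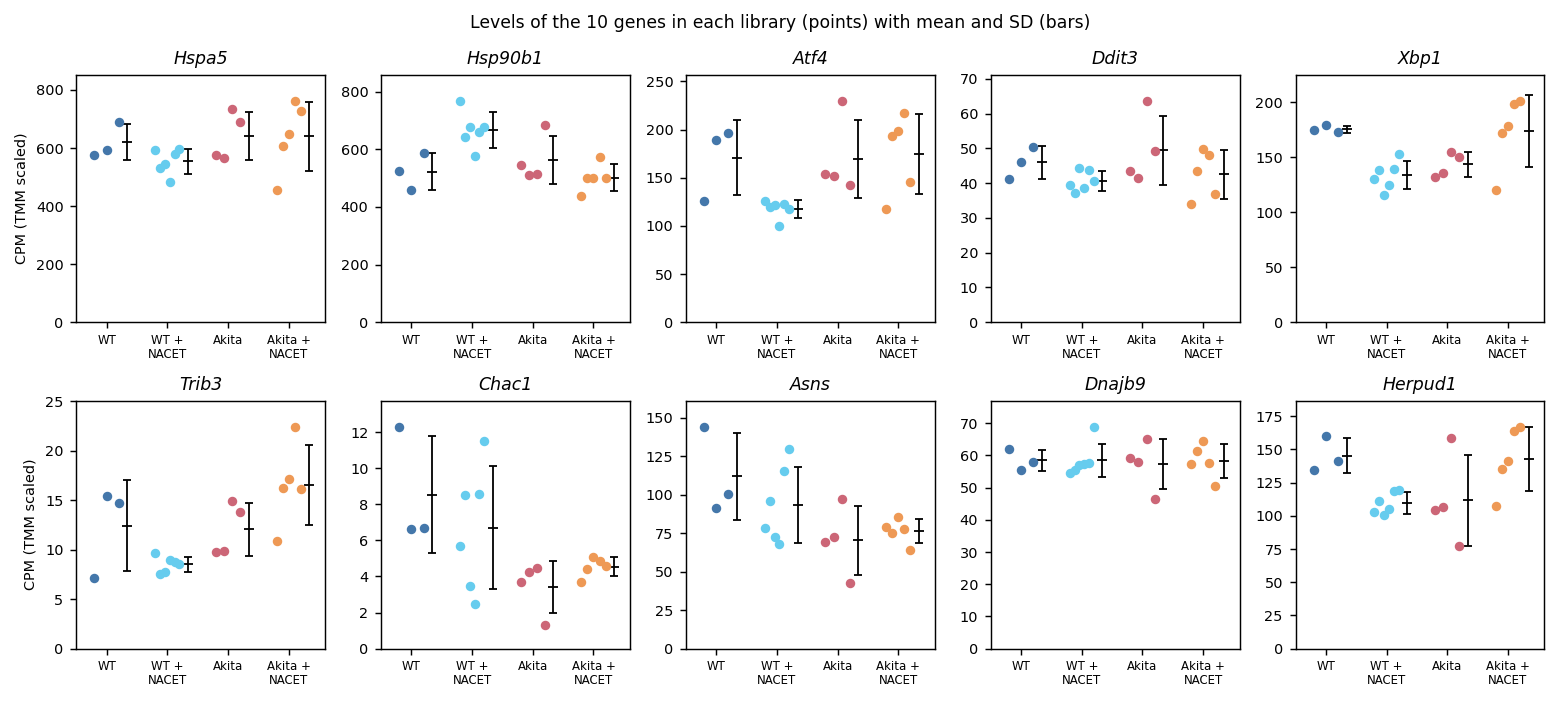
CPM (y axes, linear from 0) of the 10 genes in every library (points), by group (x axes), with the group mean and SD as bars. Hsp90b1 lies highest in WT + NACET, at 576 to 768 CPM, whereas Atf4, Xbp1 and Trib3 have their lowest group median there.

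Genotype and treatment were compared in 5 pairs of groups and in their interaction, the log2 change with NACET in Akita mice minus that in WT mice. The edgeR quasi-likelihood test was applied to 16183 genes, and a gene was called at a Benjamini-Hochberg adjusted p of at most 0.05. The 6 comparisons share libraries and are not independent of each other. When the groups on NACET were compared, 4 of the 10 genes were called. Trib3, Atf4 and Xbp1 were higher and Hsp90b1 was lower in Akita + NACET than in WT + NACET. In the interaction, 4 of 10 were called as well, with Trib3, Xbp1 and Herpud1 positive and Hsp90b1 negative. In the other 4 comparisons no member was called.

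In Akita vs WT, edgeR called 0 of the 10 genes, against 7.64% of all genes tested. At an unadjusted p below 0.05 there were 4, Xbp1, Chac1, Asns and Herpud1, all lower in Akita, against 27.0% of all genes. DESeq2 called 2, Chac1 and Asns, against 13.7% of the genes it tested. The libraries of the groups did not overlap for 2 members, Xbp1 and Chac1, against 23.2% of all genes. The median log2 difference of the members was -0.03, beside -0.01 over all genes. Without Akita replicate 3, edgeR called 2 members, Asns and Herpud1, both lower, beside 1052 of all genes.

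When Akita + NACET was set against Akita, edgeR and DESeq2 each called 0 of 10, against 9.65% and 15.8% of all genes. At an unadjusted p below 0.05 there were 3, Xbp1, Trib3 and Herpud1, all higher with NACET, against 29.0%. The member median was 0.08 on the log2 scale, beside 0.00 over all genes, and 0 members were free of overlap between the groups, against 14.1% of all genes. Without Akita replicate 3 Herpud1 was called (edgeR adjusted p = 0.0247), beside 992 of all genes. Without Akita + NACET replicate 1 Xbp1 was called (edgeR adjusted p = 0.0204), beside 1543 of all genes.

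In WT + NACET vs WT, edgeR called 0 of 10, against 1.48% of all genes, and 5 had an unadjusted p below 0.05, against 19.5%. These were Hsp90b1, higher with NACET, and Atf4, Xbp1, Trib3 and Herpud1, lower with NACET. DESeq2 called Hsp90b1 alone, against 4.90% of its genes. Xbp1 and Herpud1 did not overlap between the groups, against 11.5% of all genes. The member median was -0.30 on the log2 scale, beside -0.01 over all genes. When only these 9 libraries were fitted, edgeR called 3 members, Atf4, Xbp1 and Herpud1, beside 269 of all genes, and DESeq2 called 4, the same 3 and Hsp90b1, beside 943 of all genes.

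Against WT, Akita + NACET gave 0 of 10 members called by edgeR, against 0.00618% of all genes, which was 1 gene. Chac1 and Asns had an unadjusted p below 0.05, against 4.63%, and DESeq2 called none, against 0.0502%. The same 2 genes did not overlap between the groups, against 4.17% of all genes, and both were lower in Akita + NACET. The member median was -0.02 on the log2 scale, beside -0.01 over all genes.

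In Akita + NACET vs WT + NACET, the 4 of 10 members called by edgeR stand against 13.3% of all genes. By direction they were 3 higher, against 6.01%, and 1 lower, against 7.26%. DESeq2 called these 4 and Herpud1, against 17.6% of its genes. Trib3 and Hsp90b1 did not overlap between the groups, against 8.01%. For the interaction, 4 members were called against 20.3% of all genes, 3 positive against 10.1% and 1 negative against 10.2%. DESeq2 called 4 members here, against 22.6%. The outside-exon share was 9.55 to 16.5% in WT + NACET and 14.3 to 19.8% in Akita + NACET, with overlap. In Akita the share lay below that of WT and Akita + NACET without overlap. The rod, cone and Müller glia sums did not overlap between the groups on NACET. The part of cell makeup in these calls was not tested. In a fit that took the outside-exon share into account, 1 member, Trib3, was called between the groups on NACET, beside 194 of all genes, and 0 in the interaction, beside 17 of all genes. Without the filter on low counts, Atf4 missed the threshold between the groups on NACET (edgeR adjusted p = 0.0520).

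**Figure D2:**
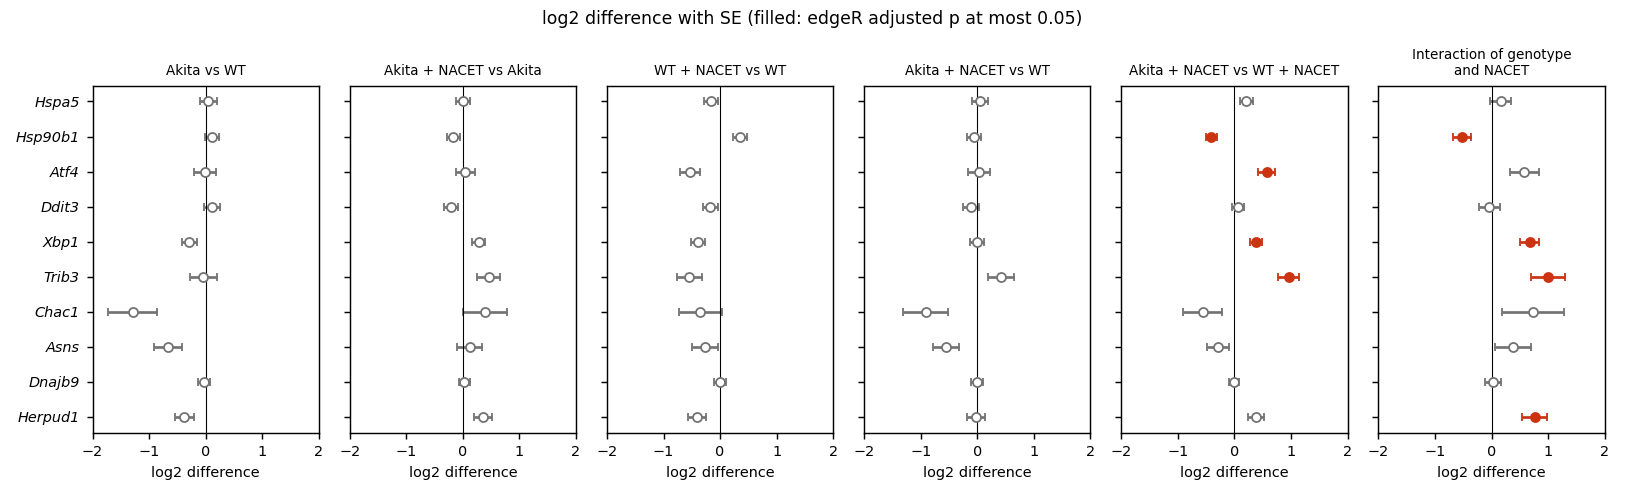
log2 difference (x axes) with its SE (bars) of each gene (y axis) in the 5 comparisons of groups and the interaction. Filled red points passed an edgeR adjusted p of 0.05. All of them lie in the 2 panels on the right, and Hsp90b1 is the only filled point left of 0 there.

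Of the chaperones, Hspa5 was called in no comparison, and Hsp90b1 was called between the groups on NACET and in the interaction. Hspa5 (chr2:34627490-34632051) encodes BiP, the ER chaperone of the HSP70 family that holds the stress sensors inactive. Its level was 577, 595 and 690 CPM in WT, and 485 to 598 with a median of 561 in WT + NACET. It was 575, 566, 734 and 691 CPM in Akita and 457, 608, 648, 762 and 728 CPM in Akita + NACET. All groups overlapped, and the widest log2 difference was 0.21 ± 0.11 (SE) in Akita + NACET vs WT + NACET (edgeR adjusted p = 0.218).

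Hsp90b1 (chr10:86152954-86168254) encodes GRP94, the HSP90 chaperone of the ER, which folds secreted and membrane proteins. It had 523, 459 and 586 CPM in WT, and 576 to 768 with a median of 669 in WT + NACET. Akita libraries had 546, 510, 513 and 686 CPM, and in Akita + NACET 437, 500, 499, 574 and 501 CPM. Every Akita + NACET library lay below every WT + NACET library, by a narrow margin at the closest pair. The difference was -0.41 ± 0.10 log2 (SE, edgeR adjusted p = 0.0123). In WT + NACET vs WT the difference was 0.35 ± 0.12 (edgeR adjusted p = 0.116), and the interaction was -0.52 ± 0.16 (edgeR adjusted p = 0.0281). The interaction missed the threshold without WT replicate 1 (edgeR adjusted p = 0.0640) or WT replicate 2 (edgeR adjusted p = 0.0948).

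The ratio of Hspa5 to Hsp90b1 counts within a library does not depend on how libraries are scaled. It was chosen after its values were seen and is given with no test. In WT it was 1.10, 1.30 and 1.18, and in WT + NACET 0.772 to 0.883 with a median of 0.836. In Akita it was 1.05, 1.11, 1.43 and 1.01, and in Akita + NACET 1.04, 1.22, 1.30, 1.33 and 1.45. The 6 WT + NACET libraries thus all lay below the other 12, which began at 1.01.

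**Figure D3:**
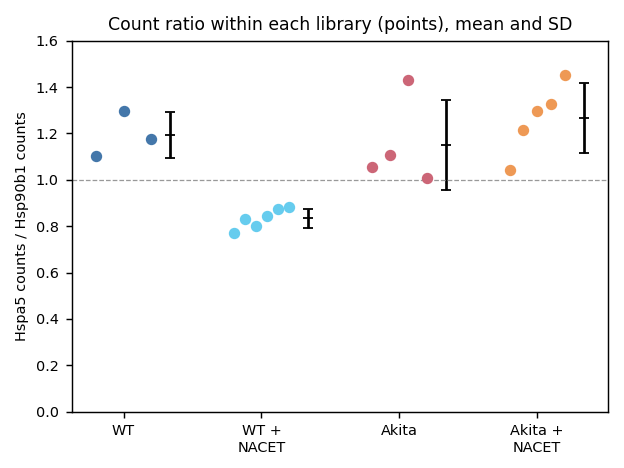
Hspa5 counts divided by Hsp90b1 counts in each library (points, y axis from 0) by group, with the mean and SD as bars and a dashed line at equal counts. All 6 WT + NACET libraries fall below the line, at 0.772 to 0.883, and the 12 other libraries lie above it.

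Xbp1 and Herpud1 followed a common pattern, with similar levels in WT and Akita + NACET and lower medians in WT + NACET and Akita. Xbp1 (chr11:5420662-5425896) encodes the transcription factor that IRE1 activates by splicing. It had 175, 179 and 173 CPM in WT and 116 to 153 with a median of 134 in WT + NACET. In Akita it had 133, 136, 155 and 150 CPM, and in Akita + NACET 120, 172, 179, 199 and 201 CPM. The WT libraries lay above all WT + NACET and all Akita libraries, and Akita + NACET replicate 1 lay apart from the other 4 at the low end. Akita + NACET exceeded WT + NACET by 0.38 ± 0.10 log2 (SE, edgeR adjusted p = 0.0209). The difference of WT + NACET from WT was -0.39 ± 0.12 (edgeR adjusted p = 0.0900) and that of Akita from WT -0.29 ± 0.13 (edgeR adjusted p = 0.155). The interaction was 0.67 ± 0.17 (edgeR adjusted p = 0.0108), and Xbp1 was the one member called in it with each library left out in turn. Between the groups on NACET, Xbp1 missed the threshold without Akita + NACET replicate 4 (edgeR adjusted p = 0.0605), Akita + NACET replicate 5 (edgeR adjusted p = 0.0736) or WT + NACET replicate 3 (edgeR adjusted p = 0.0553).

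Herpud1 (chr8:96910338-96919277) encodes an ER membrane protein that assists ER-associated degradation. It had 134, 160 and 142 CPM in WT and 100 to 119 with a median of 108 in WT + NACET. Akita libraries had 105, 106, 159 and 77.1 CPM, and in Akita + NACET 107, 136, 141, 164 and 167 CPM. WT + NACET lay wholly below WT, while Akita spanned nearly the whole range, with replicate 3 high and replicate 4 low. The interaction was 0.76 ± 0.22 log2 (SE, edgeR adjusted p = 0.0232), and without WT replicate 2 it was 0.69 ± 0.24 (edgeR adjusted p = 0.0709). The difference between the groups on NACET, 0.38 ± 0.14, gave an edgeR adjusted p of 0.0692.

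Dnajb9 (chr12:45306884-45311055), which encodes ERdj4, a BiP cochaperone induced by spliced XBP1, was the steadiest member. It had 61.9, 55.4 and 58.1 CPM in WT, and 54.6 to 68.7 with a median of 57.3 in WT + NACET. In Akita it had 59.3, 58.0, 65.2 and 46.6 CPM, and in Akita + NACET 57.5, 61.2, 64.5, 57.7 and 50.5 CPM. The groups overlapped throughout. No comparison had a log2 difference beyond 0.03 in size, with SE from 0.09 to 0.14.

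**Figure D4:**
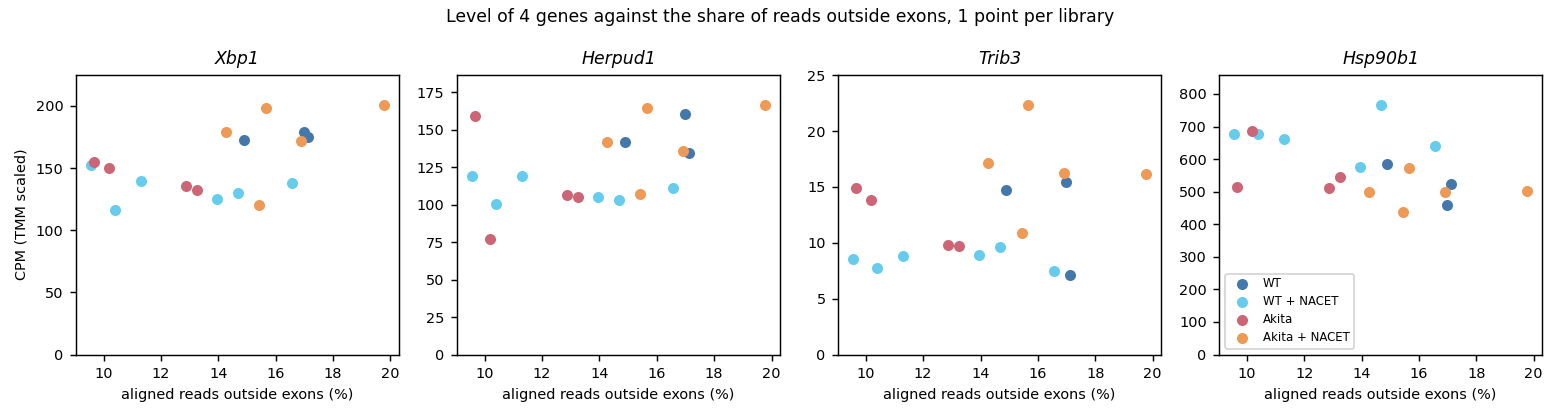
CPM of Xbp1, Herpud1, Trib3 and Hsp90b1 (y axes from 0) against the percentage of aligned reads outside annotated exons (x axes), 1 point per library, colored by group. WT and Akita + NACET libraries lie mostly to the right, at 14.3 to 19.8%, and Akita libraries to the left, at 9.67 to 13.3%.

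Of the transcription factors of the integrated stress response, Atf4 and its target Trib3 differed between the groups on NACET and Ddit3 did not pass the test. Atf4 (chr15:80085614-80087970) had 126, 190 and 197 CPM in WT and 99.6 to 126 with a median of 121 in WT + NACET. Akita libraries had 154, 152, 230 and 143 CPM, and in Akita + NACET 117, 194, 199, 218 and 146 CPM. The 6 WT + NACET libraries formed a tight low group, which WT replicate 1 and Akita + NACET replicate 1 entered. Atf4 was higher in Akita + NACET than in WT + NACET by 0.57 ± 0.16 log2 (SE, edgeR adjusted p = 0.0249). It missed the threshold without Akita + NACET replicate 2 (edgeR adjusted p = 0.0583) or replicate 4 (edgeR adjusted p = 0.0684). In WT + NACET vs WT the difference was -0.54 ± 0.18 (edgeR adjusted p = 0.126), and the interaction was 0.58 ± 0.25 (edgeR adjusted p = 0.107).

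Trib3 (chr2:152163158-152169768) encodes a pseudokinase that is induced by ATF4 and CHOP and inhibits AKT signaling. It had 7.11, 15.4 and 14.7 CPM in WT and 7.504 to 9.64 with a median of 8.66 in WT + NACET. In Akita it had 9.75, 9.84, 14.9 and 13.8 CPM, and in Akita + NACET 10.9, 16.3, 17.1, 22.4 and 16.1 CPM. The groups on NACET did not overlap, whereas WT was split between replicate 1, the lowest of all libraries, and the other 2. Trib3 was 1.94-fold higher in Akita + NACET than in WT + NACET (log2 difference 0.96 ± 0.19, SE, edgeR adjusted p = 0.00385), the largest of the differences called for the 10 genes between 2 groups, and it was called there with each library left out in turn and in the fit that took the outside-exon share into account (edgeR adjusted p = 0.0244). The interaction was 0.998 ± 0.299 (edgeR adjusted p = 0.0257), with an edgeR adjusted p of 0.0514 without Akita replicate 1, 0.0928 without WT replicate 2 and 0.0628 without WT replicate 3.

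Ddit3 (chr10:126727830-126733344) encodes CHOP, the factor linked to cell death after prolonged ER stress. It had 41.2, 46.2 and 50.5 CPM in WT, and 37.2 to 44.5 with a median of 40.0 in WT + NACET. Akita libraries had 43.4, 41.5, 63.6 and 49.2 CPM, and in Akita + NACET 34.04, 43.6, 49.9, 48.2 and 36.8 CPM. The groups overlapped, and Akita replicate 3 was the highest library, as it was for Atf4. The difference between Akita and WT was 0.10 ± 0.14 log2 (SE, edgeR adjusted p = 0.675).

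Asns and Chac1 had their lowest group medians in Akita mice and went together over the libraries. Asns (chr6:7625169-7643254) encodes asparagine synthetase, a target of ATF4 in amino acid shortage. It had 144, 91.2 and 101 CPM in WT and 68.3 to 130 with a median of 87.2 in WT + NACET. In Akita it had 69.0, 72.4, 97.5 and 42.5 CPM, and in Akita + NACET 79.0, 75.3, 85.9, 77.9 and 64.4 CPM. Akita + NACET lay wholly below WT, and Akita did so except for replicate 3. The difference of Akita from WT was -0.67 ± 0.25 log2 (SE, edgeR adjusted p = 0.0984, DESeq2 adjusted p = 0.0474) and that of Akita + NACET from WT -0.55 ± 0.24 (edgeR adjusted p = 0.9996).

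Chac1 (chr2:119176965-119180117) encodes an enzyme that degrades glutathione and is induced by ATF4, and NACET is a precursor of the cysteine from which glutathione is made. It had 12.3, 6.64 and 6.68 CPM in WT and 2.50 to 11.5 with a median of 7.11 in WT + NACET. Akita libraries had 3.72, 4.23, 4.46 and 1.33 CPM, and in Akita + NACET 3.72, 4.42, 5.11, 4.85 and 4.57 CPM. Both Akita groups lay below every WT library, and WT + NACET reached from below all Akita libraries but replicate 4 of untreated Akita up to nearly the highest WT library. The difference of Akita from WT was -1.29 ± 0.43 log2 (SE, edgeR adjusted p = 0.0684, DESeq2 adjusted p = 0.0213). In Akita + NACET vs Akita it was 0.38 ± 0.39 (edgeR adjusted p = 0.543). The library with the lowest Asns and Chac1, Akita replicate 4, was the one with the lowest ganglion cell and Müller glia sums, and the amacrine sum was lower in every Akita library than in every WT library. The part of cell makeup in these values was not tested.

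The other genes of the pathway were taken from 6 lists, of which 105 genes outside the 10 were tested. Of these, 23 were called in the interaction (21.9%), 15 between the groups on NACET (14.3%), 7 in Akita vs WT (6.67%), 4 for NACET in Akita mice (3.81%), 2 for NACET in WT mice (1.90%) and 0 in Akita + NACET vs WT. The shares over all genes were those given above for each comparison. The outside-exon share of Akita did not overlap that of WT or of Akita + NACET, and in the other pairs of groups compared it overlapped. The amacrine sum did not overlap between Akita and WT, nor the amacrine, cone, rod and red cell sums between Akita + NACET and Akita, nor the rod, cone and Müller glia sums between the groups on NACET, and nor did the secretory list between WT + NACET and WT. The number of calls in both comparisons with untreated Akita changed strongly when single libraries were left out. In Akita vs WT, edgeR called 0 of all genes without WT replicate 1 or without WT replicate 2, and 234 to 1515 without another library. In Akita + NACET vs Akita it called 1 gene without Akita replicate 4, and 101 to 1754 without another library. In the fit with the outside-exon share, 0 genes were called in either comparison.

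Among 17 ER chaperones and folding enzymes, 2 were higher in Akita than in WT, and both were lower in Akita + NACET than in Akita. They were the disulfide isomerases Pdia4 and P4hb. Pdia4 had 82.7 to 88.1 CPM in WT, 98.2 to 140 in Akita and 85.6 to 99.2 in Akita + NACET. The log2 differences were 0.40 ± 0.10 (SE) for Akita vs WT (edgeR adjusted p = 0.0247) and -0.32 ± 0.09 for Akita + NACET vs Akita (edgeR adjusted p = 0.0291). P4hb had 296 to 338 CPM in WT, 388 to 470 in Akita and 238 to 361 in Akita + NACET, with differences of 0.40 ± 0.12 (edgeR adjusted p = 0.0492) and -0.42 ± 0.11 (edgeR adjusted p = 0.0239). The Akita libraries of P4hb lay above all libraries of both other groups. In WT + NACET vs WT, the BiP cochaperone Dnajb11 was the only gene of this list called, with 93.4 to 108 CPM in WT, 114 to 136 in WT + NACET and a difference of 0.31 ± 0.07 (edgeR adjusted p = 0.0390).

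Between the groups on NACET, 7 of these 17 genes were called, 6 lower in Akita + NACET, as Hsp90b1 was, and 1 higher. The lowest p among the lower ones belonged to Dnajb11 (-0.32 ± 0.06 log2, SE, edgeR adjusted p = 0.00412), the lectin chaperone Canx (-0.34 ± 0.07, edgeR adjusted p = 0.00416) and the disulfide isomerase Pdia3 (-0.41 ± 0.09, edgeR adjusted p = 0.00667). Canx had 616 to 658 CPM in Akita + NACET and 759 to 832 in WT + NACET, with no overlap. The oxidase Ero1l, which reoxidizes disulfide isomerases, was the higher one (0.48 ± 0.10, edgeR adjusted p = 0.00667). The list had a median difference of -0.18, beside 0.00 over all genes, and the interaction called 7 of 17, with Ero1l positive and 6 negative, among them Dnajb11, Pdia4 and P4hb. In the interaction, Xbp1, Herpud1 and Trib3 thus had the opposite sign to these 6, and Hsp90b1 the same sign. The list had a median of -0.28 there.

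Of 19 genes of ER-associated degradation and translocation, the ubiquitin-conjugating enzyme Ube2j1 rose in Akita vs WT (0.40 ± 0.12 log2, SE, edgeR adjusted p = 0.0494). Between the groups on NACET the ubiquitin ligase gene Syvn1 was higher in Akita + NACET (0.34 ± 0.10, edgeR adjusted p = 0.0361), and Selk (-0.44 ± 0.09, edgeR adjusted p = 0.00416) and the translocon subunit Sec61b (-0.41 ± 0.12, edgeR adjusted p = 0.0322) were lower. In the interaction 3 were negative, Sec61a1, Erlec1 and Selk. Of 13 sensors and regulators, Atf6 (-0.40 ± 0.09, edgeR adjusted p = 0.0206) and Wfs1 (-0.37 ± 0.10, edgeR adjusted p = 0.0300), an ER membrane protein that is mutated in Wolfram syndrome, fell in Akita + NACET vs Akita. Atf6 had 51.4 to 61.3 CPM in Akita and 37.2 to 47.9 in Akita + NACET, with no overlap. The interaction called 4 of this list, all negative, among them Atf6, Wfs1 and Mbtps1, the protease that cleaves ATF6, and between the groups on NACET the cell death effector Bax was lower in Akita + NACET (-0.25 ± 0.06, edgeR adjusted p = 0.0152). The PERK gene Eif2ak3 and the IRE1 gene Ern1, named here after their values were seen, were not called in any comparison.

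Of 16 genes around eIF2, Eif2b3, a subunit of its exchange factor, was higher (0.35 ± 0.10 log2, SE, edgeR adjusted p = 0.0414) and Impact, an inhibitor of the kinase GCN2, lower in Akita than in WT (-0.54 ± 0.13, edgeR adjusted p = 0.0233). Eif2s1, the subunit that is phosphorylated, was lower in Akita + NACET than in WT + NACET (-0.24 ± 0.07, edgeR adjusted p = 0.0359), and the interaction called 3, Impact and the kinase gene Eif2ak1 positive and Eif2s3x negative. Of 9 partner transcription factors tested, Atf3, a target of ATF4, was called. Its level was 8.93 to 12.003 CPM in WT + NACET and 11.9, 31.4, 27.1, 41.4 and 25.0 in Akita + NACET. The groups overlapped only through Akita + NACET replicate 1, which was also the lowest of its group for every member except Asns and Dnajb9. The difference was 1.37 ± 0.25 (edgeR adjusted p = 0.00385).

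Of 32 amino acid and redox targets of ATF4, the cationic amino acid transporter Slc7a3 was the one called in both Akita vs WT and WT + NACET vs WT. It had 4.95, 5.52 and 5.54 CPM in WT, 0.531 to 3.14 in WT + NACET, 1.41 to 2.26 in Akita and 1.72 to 4.38 in Akita + NACET, so that every other library lay below WT. These are low levels, since 0.531 CPM lies below the 1.33 CPM of the lowest Chac1 library. Slc7a3 was lower than in WT by a log2 difference of -1.61 ± 0.37 in Akita (SE, edgeR adjusted p = 0.0190) and of -1.45 ± 0.33 in WT + NACET (edgeR adjusted p = 0.0293). Both comparisons use the same WT libraries. Vldlr, a lipoprotein receptor, was higher in Akita than in WT (0.42 ± 0.13, edgeR adjusted p = 0.0482). Between the groups on NACET the amino acid transporter Slc38a2 was higher (0.52 ± 0.16, edgeR adjusted p = 0.0418) and Phgdh, the entry enzyme of serine synthesis, lower (-0.92 ± 0.28, edgeR adjusted p = 0.0329) in Akita + NACET. In the interaction 5 were called, Slc7a3 positive and 4 negative, among them Lars, Cth and Psph.

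The 10 genes did not vary as a whole over the libraries. Of their 45 pairs, 12 passed an adjusted p of 0.05 for both Pearson's r and Spearman's ρ of log2 CPM over the 18 libraries (100000 permutations, two-sided), and all 12 were positive. The permutations here and below ignored the groups, so their p-values mix differences between groups with variation within them. Chac1 and Asns were the closest, with r = 0.93 (permutation adjusted p = 0.00045, from 1e-05, the smallest the permutations can give) and ρ = 0.86 (permutation adjusted p = 0.000225), and r = 0.85 without the 2 libraries farthest from the Chac1 median. Centred on the group means, r was 0.90. Atf4 and Trib3 had r = 0.83 (permutation adjusted p = 0.00135) and ρ = 0.77 (permutation adjusted p = 0.00459), 0.80 without the 2 farthest libraries and 0.77 within groups. Xbp1 and Herpud1 had r = 0.78 (permutation adjusted p = 0.0021) and ρ = 0.87 (permutation adjusted p = 0.000225), 0.69 without the 2 farthest and 0.62 within groups.

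The other 9 such pairs were among Hspa5, Xbp1, Herpud1, Atf4, Ddit3 and Trib3. Atf4 and Asns, a transcription factor and its target, had r = -0.03 (permutation adjusted p = 0.943), ρ = 0.01 (permutation adjusted p = 0.981), -0.08 without the 2 farthest and 0.20 within groups. Hspa5 and Hsp90b1 had r = 0.04 (permutation adjusted p = 0.943), ρ = -0.01 (permutation adjusted p = 0.981) and -0.22 without the 2 farthest, but 0.64 once each library was centred on its group mean. This within-group value pools the 4 groups and carries no p. Akita replicate 3 went against it, with the highest Hspa5 of its group (734 CPM) and 513 CPM of Hsp90b1. Between groups, WT + NACET had the lowest mean of Hspa5 (555 CPM) and the highest of Hsp90b1 (667 CPM).

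**Figure D5:**
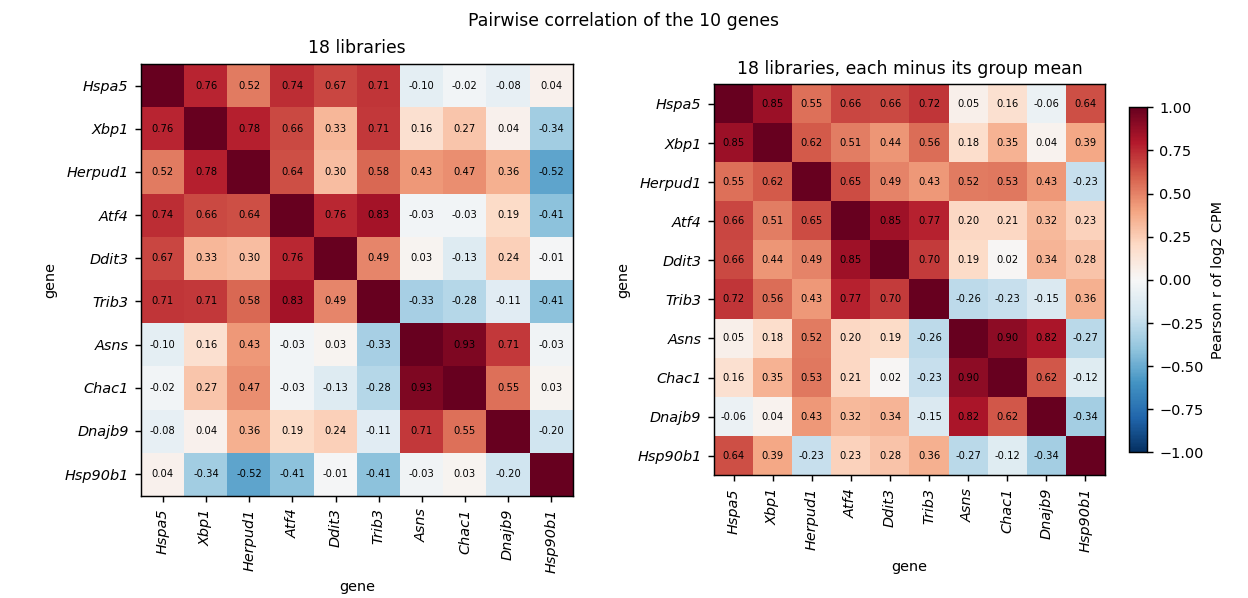
Pearson r of log2 CPM for each pair of the 10 genes over 18 libraries (left) and after subtracting group means (right), with color from -1 (blue) to 1 (red). The order of the genes was set by hand. Hspa5, Xbp1, Herpud1, Atf4, Ddit3 and Trib3 stand side by side, with r on the left from 0.30 (Ddit3 and Herpud1) to 0.83 (Atf4 and Trib3). Asns, Chac1 and Dnajb9 follow, from 0.55 (Chac1 and Dnajb9) to 0.93 (Chac1 and Asns). Hsp90b1 with Hspa5 goes from 0.04 on the left to 0.64 on the right.

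The genes most like Hspa5 over the 18 libraries were Anks3 (r = 0.87), Atp2c1 (0.87), Usp15 (0.85), Nfya (0.84) and Arl16 (0.83), and the member nearest to it, Xbp1, came at rank 17 of all genes tested. Those most like Asns were Chac1 (r = 0.93), Rab9b (0.91), Anxa5 (0.87), Gnb2 (0.86) and Dtna (0.86). These values are descriptions over 18 libraries that share their groups and carry no p.

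Of 20 relations of the members with the outside-exon share and with the rod sum, looked at after the other results were known, 0 passed an adjusted p of 0.05 for both coefficients. The closest was Hsp90b1 with the log2 rod sum over the 18 libraries, which had r = 0.66 (permutation adjusted p = 0.0574), ρ = 0.72 (permutation adjusted p = 0.0202), 0.62 without the 2 farthest libraries and 0.64 within groups. Herpud1 had the opposite sign, with r = -0.59 (permutation adjusted p = 0.102), ρ = -0.57 (permutation adjusted p = 0.143), -0.29 without the 2 farthest and -0.24 within groups. With the outside-exon share, Xbp1 had r = 0.49 (permutation adjusted p = 0.127), ρ = 0.48 (permutation adjusted p = 0.153), 0.41 without the 2 farthest and 0.03 within groups. The part of rod content in the differences of Herpud1 and Hsp90b1 between groups was not tested.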

How the data were processed

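Retinal poly(A) RNA of 18 libraries in 4 labelled groups was used. Per the labels and the study's methods, the authors made TruSeq RNA v2 libraries, ran single-end sequencing on an Illumina NextSeq instrument, aligned reads to mm9 with TopHat2 2.1.0 and counted exon reads per gene without strand with HTSeq 0.11.2 in intersection-nonempty mode. The annotation they used is not given in the sources used here. The deposited values are raw counts. The entry without a gene name held 0.00544% of gene counts on average and was left out, as were 206 ribosomal RNA genes (0.977% of counts), which the study also removed. Reads aligned to several places were not counted. Coordinates and exon lengths are from GENCODE vM1 on mm9.

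The main test was edgeR 4.0.16 in R 4.3.3 (TMM, filterByExpr with minimum count 10 and minimum total 15, robust quasi-likelihood F test, 1 fit of all 18 libraries) on 16183 genes, with Benjamini-Hochberg adjustment over all of them, and the biological coefficient of variation was 0.186. The test was tried on simulated data. Alternatives were DESeq2 1.42.0, other filters and size factors, 2 groups only, the replicate number as a block, a covariate for the outside-exon share, and each library left out. Genes named besides the 10 were up to 3 per list and direction in each comparison, those with the smallest p among the called, and the 5 most correlated with Hspa5 and with Asns. Members and lists were chosen with earlier results of these data known. The ratio of Hspa5 to Hsp90b1 and the relations with the rod sum and the outside-exon share were added after seeing the data. Replicates differed beyond counting noise, with a chi-square per gene of 4.67 to 50.8. A marker of rods is not reported here and was left out of the rod sum.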

Additional observations from a re-analysis of the deposited data

Results flagged for a closer look

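In groups of 4 to 6 libraries, 3 of 30 tests for a library far from its group were positive, where chance gives about 1 in 20. Atf4 was 230 CPM in Akita replicate 3, above the other 3 at 143 to 154. It was 99.6 CPM in WT + NACET replicate 4, below the rest. Dnajb9 was 68.7 CPM in WT + NACET replicate 6, above the rest.

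The change with NACET differed between Akita and WT mice, by the interaction in edgeR, for 4 of the 10 genes, against 20.3% of all genes tested. The log2 values were -0.52 for Hsp90b1, 0.67 for Xbp1, 0.998 for Trib3 and 0.76 for Herpud1, each the change in Akita minus the change in WT. Of the other pathway genes, the positive interactions were 2.28 for Slc7a3, 1.35 for Atf3, 0.63 for Impact, 0.48 for Ero1l and 0.38 for Eif2ak1. Among the negative interactions of ER genes were -0.67 for P4hb, -0.54 for Pdia4, -0.52 for Dnajb11, -0.48 for Erlec1, -0.41 for Selk and -0.35 for Sec61a1. Of the sensors and regulators, Wfs1 had -0.55, Atf6 -0.54 and Mbtps1 -0.42. Of the translation and amino acid genes, Cth had -0.75, Eif2s3x -0.57, Psph -0.49 and Lars -0.30. The outside-exon share of Akita did not overlap that of WT or of Akita + NACET, and in a fit with the share 0 of the 10 were called. The rod, cone, Müller glia, amacrine, red cell and pigment epithelium marker sums each lay apart without overlap in at least 1 pair of the 4 groups, and their part was not tested.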

How the results depend on the processing

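DESeq2 with all groups called 2 of the 10 members in Akita vs WT and 1 in WT + NACET vs WT. With 2 groups only, DESeq2 called 1 and 4 there, and edgeR called 3 in WT + NACET vs WT. Between the groups on NACET, 3 were called with no filter on low counts, where Atf4 was lost (edgeR adjusted p = 0.0520), and 5 by DESeq2 and by either tool on 2 groups. With a covariate for the outside-exon share, 1 was called in Akita + NACET vs WT + NACET and 0 in the interaction. Leaving out each library gave 1 to 5 in the interaction, 2 to 5 between the groups on NACET, 0 to 2 in Akita vs WT, 0 to 1 for NACET in Akita mice and 0 in the other comparisons. With the replicate block, 4 members were called between the groups on NACET and 3 in the interaction, where Hsp90b1 was lost (edgeR adjusted p = 0.0671), and 0 elsewhere. No pairing of same-numbered libraries was seen. Their deviations correlated between -0.33 and 0.34 over 22 pairs, and 2 of 18 libraries correlated best with their own number. This check cannot exclude a batch or handling order shared by number. Small differences turned their sign with the covariate, Ddit3 to -0.18 log2 in Akita vs WT, 0.0701 for NACET in Akita mice and 0.45 in the interaction, and Dnajb9 to -0.10 in WT + NACET vs WT and 0.10 in Akita + NACET vs WT + NACET. Ddit3 ran from -0.042, without Akita replicate 3, to 0.18 in Akita vs WT when single libraries were left out. Of 1140 refits of single members, 1093 kept their side of the threshold without a marked change of sign. A change of sign was not counted when the gene was uncalled and moved by no more than its SE in the main fit. Over all genes, 1237 were called in Akita vs WT, against 2078 (DESeq2), 507 (replicate block), 148 (edgeR, 2 groups), 0 (covariate) and 0 to 1515 without single libraries, with 0 without WT replicate 1 or 2. In Akita + NACET vs Akita 1562 became 2391, 219, 700, 0 and 1 to 1754, with 1 without Akita replicate 4, and 1010 without the filter. In WT + NACET vs WT 240 became 717 with DESeq2, 943 with DESeq2 on 2 groups, 61 with the covariate and 72 to 329 without single libraries. In Akita + NACET vs WT + NACET 2148 became 1363 with the block, 194 with the covariate and 860 to 2422 without single libraries. In the interaction 3289 became 17 with the covariate and 1699 to 3524 without single libraries. For Akita + NACET vs WT, 1 became 10 (DESeq2), 28 (DESeq2, 2 groups), 3 (edgeR, 2 groups), 2 (no filter), 0 (replicate block) and 0 to 2 without single libraries. The causes were not tested. Of the 10 genes, depth limits Chac1 most, with 16 reads in its lowest library.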
